A study of Mus musculus with 46 samples.

Results

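Skeletal muscle removes its proteins largely through the ubiquitin-proteasome system, in which an E3 ligase recognises a protein and has ubiquitin attached to it. The ligases MAFbx (atrogin-1, encoded by *Fbxo32*) and MuRF1 (*Trim63*) are known for rising in many kinds of muscle atrophy, and the FOXO factors are transcription factors that are kept out of the nucleus when Akt phosphorylates them and that otherwise can activate both ligase genes. Androgens are known to act on muscle mass, so orchidectomy (ORX) and dihydrotestosterone (DHT) set the background against which these genes were read.

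The 10 genes described here were chosen by name, with earlier results of these data known. They are 4 groups by role: the atrophy ligases *Fbxo32* and *Trim63*; the MuRF relatives *Trim54* (MuRF3) and *Trim55* (MuRF2); the F-box genes *Fbxo30*, *Fbxo40* and *Fbxo21*; and the FOXO factors *Foxo1*, *Foxo3* and *Foxo4*. Their Ensembl identifiers are ENSMUSG00000022358 (*Fbxo32*), ENSMUSG00000028834 (*Trim63*), ENSMUSG00000062077 (*Trim54*), ENSMUSG00000060913 (*Trim55*), ENSMUSG00000047648 (*Fbxo30*), ENSMUSG00000047746 (*Fbxo40*), ENSMUSG00000032898 (*Fbxo21*), ENSMUSG00000044167 (*Foxo1*), ENSMUSG00000048756 (*Foxo3*) and ENSMUSG00000042903 (*Foxo4*). All 10 were among the 17514 genes of the ORX count table and the 16987 genes of the DHT count table, and all 10 passed the filter on low values.

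RNA was sequenced from whole skeletal muscle of C57BL6 WT mice and of mice in which *Actn3*, the gene of the fast-fibre Z-disc protein α-actinin-3, was knocked out throughout the body. Male gastrocnemius was taken 12 weeks after ORX or a sham operation performed at 8 to 10 weeks of age, giving 6 libraries each of WT-sham, WT-ORX and KO-sham, and 5 of KO-ORX; a sixth KO-ORX sample of the labels was not analysed here. Female spinalis, a muscle along the spine, was taken after 6 weeks with a subcutaneous silastic implant holding 10 mg of DHT or nothing, placed at 4 to 5 weeks of age, giving 6 WT-DHT, 5 WT-Empty, 6 KO-DHT and 5 KO-Empty libraries. The implants lay between the shoulder blades, in the region of the spinalis. Each library is a separate mouse. Sex, muscle and age all differ between the ORX and the DHT experiment, and the effects of these cannot be told apart, so the experiments were tested separately.

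Total counts were 43.4 to 50.3 M in WT-sham, 39.9 to 55.4 M in WT-ORX, 29.5 to 37.5 M in KO-sham and 26.7 to 48.5 M in KO-ORX libraries. In the DHT experiment they were 37.3 to 51.2 M in WT-Empty, 34.8 to 53.9 M in WT-DHT, 42.5 to 47.8 M in KO-Empty and 34.9 to 51.7 M in KO-DHT libraries. Every KO-sham library was smaller than every WT-sham library. Levels are given as CPM (counts per M counts of the library, where M is 1e6, TMM-scaled), and differences as log2 fold changes (log2FC) with their standard error (SE). Tests are the quasi-likelihood test of edgeR, corrected by Benjamini-Hochberg across every gene of a table, whose adjusted p is written q, and a gene is said to rise or fall where q was at or below 0.01 (0.05 for an interaction). Where "alternatives" and "removals" stand beside a value, they give its lowest and highest over the alternative analyses and with 1 library left out.

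*Actn3* was read first, as a check of the genotype labels. In gastrocnemius it was at 5977 to 7052 CPM (median 6724) in WT-sham and 7826 to 9617 CPM (median 8964) in WT-ORX. It was at 35.8 to 54.7 CPM (median 46.5) in KO-sham, and the 5 KO-ORX libraries held between 34.3 and 53.1 CPM. In spinalis the WT libraries were at 8592 to 10353 CPM with empty implants and 6164 to 7703 CPM with DHT, while KO-Empty libraries held between 56.6 and 83.2 CPM and KO-DHT libraries between 61.4 and 77.5 CPM. No KO library came near any WT library, as the labels have it. The remaining KO counts show that reads still fell on the gene; which part of it they covered was not examined.

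The tissue label was compared with marker genes. Counts of 8 muscle fibre genes summed to between 77054 and 117029 CPM in gastrocnemius and between 112417 and 161890 CPM in spinalis. The markers of other cell types were far lower, led by fibroblast genes, with summed medians of 1427 to 1869 CPM across the groups. Adipocyte markers had summed medians of 236 to 459 CPM and erythrocyte markers of 115 to 387 CPM. Those of endothelial markers were 183 to 259 CPM and those of macrophage markers 138 to 178 CPM. Smooth muscle markers had 76.4 to 96.0 CPM and Schwann cell markers 28.0 to 51.4 CPM. The satellite cell markers *Pax7* and *Myf5* summed to between 2.34 and 6.82 CPM.

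The libraries come from whole muscle, so fewer fibres and less RNA per fibre cannot be told apart in any value below. Fibre markers summed lower in every KO library than in every WT library after ORX and with empty implants, but the ranges all but touched. After ORX the sums were 77054 to 85410.5 CPM in KO and 85479.6 to 117029 CPM in WT. With empty implants they were 112417 to 133959 CPM in KO and 134053 to 158263 CPM in WT. Of the 8 genes 4 were lower in KO-ORX than in WT-ORX (*Acta1*, *Ckm*, *Tnnt3* and *Des*). In KO against WT 2 were lower in the sham groups (*Acta1* and *Des*), 1 with empty implants (*Tnnt3*) and 1 with DHT (*Acta1*). After ORX 2 fell in WT (*Myh1* and *Des*) and 3 in KO (*Myh1*, *Tnnt3* and *Des*), while with DHT 1 rose in WT (*Des*) and 0 passed in KO. Of the other cell types, *Csf1r* of macrophages (−0.31, 1 of 5 markers) and *Pdgfra* of fibroblasts (−0.23, 1 of 4) fell after ORX in WT, and *Csf1r* was lower in KO-sham (−0.29). With DHT in WT *Pecam1* of endothelium (0.33, 1 of 5) and *Dcn* of fibroblasts (0.54) rose and *Pdgfra* fell (−0.44), and *Dcn* rose in KO (0.51). The satellite cell sum was higher in every KO library than in every WT library in the sham comparison (4.16 to 5.20 against 2.47 to 3.76 CPM) and with DHT (4.33 to 6.82 against 2.34 to 3.47 CPM). Of its 2 markers *Myf5* was higher in KO-sham (0.75, q = 0.00532), and both were higher in KO with DHT (*Pax7* 1.24, q = 0.000696; *Myf5* 0.89, q = 0.00238). KO-sham replicate 1 stood apart from the other 5 of its group in fibre sum (113116 against 79667 to 91963 CPM), smooth muscle sum (139.5 against 57.6 to 95.5 CPM) and the share of its 10 most abundant genes (40.4% against 35.3% to 37.3%), and had the lowest TMM factor of the ORX experiment (0.901). It also held the highest KO-sham value of *Trim54*, *Trim55*, *Fbxo40*, *Fbxo21*, *Foxo1*, *Foxo3* and *Foxo4*. WT-DHT 39KR had the lowest TMM factor of the DHT experiment (0.846). The share of its 10 most abundant genes was 43.2%, against 34.5% to 39.4% in the rest of its group. KO-Empty 61KR stood apart from its group in erythrocyte sum (537 against 79.0 to 214 CPM) and macrophage sum (303 against 111 to 174 CPM). The part of these markers in the results was not tested.

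Levels of different genes were compared only as CPM per kb of exon, with lengths from the GENCODE M21 annotation of GRCm38. In WT-sham the order by mean was *Trim63* (108 ± 16.1 CPM per kb, SD, n = 6), *Trim54* (104 ± 4.26), *Fbxo40* (87.9 ± 3.47) and *Fbxo32* (63.4 ± 6.94), followed by *Foxo4* (20.8 ± 1.03), *Trim55* (14.7 ± 0.722), *Fbxo30* (8.23 ± 0.633), *Foxo3* (3.38 ± 0.557), *Fbxo21* (2.39 ± 0.153) and *Foxo1* (1.22 ± 0.228). The ranges of *Trim63* and *Trim54* overlapped, as did those of *Foxo3* and *Fbxo21*, and each other neighbour in this order was separated from the next. In KO-ORX, by contrast, *Fbxo32* (24.5 ± 2.18 CPM per kb, n = 5) and *Foxo4* (25.2 ± 1.01) overlapped. With DHT in WT the ranges of *Trim54*, *Trim63*, *Fbxo32* and *Fbxo40* formed one overlapping series, from 125 ± 19.6 down to 75.0 ± 4.97 CPM per kb. *Foxo1* was last in every group except WT-Empty, where *Fbxo21* was, and the ranges of these genes overlapped there.

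The libraries were made with a stranded kit, but whether the authors' counting used the strand is not given in the sources used here, so reads of a gene and of an antisense partner may be mixed. On the opposite strand, Gm15943 shares 186 bp (2.67%) of *Fbxo32* exon, Gm15469 shares 382 bp (26.6%) of *Trim54* exon and Gm20402 shares 674 bp (7.78%) of *Foxo1* exon. Gm15943 held between 0.831 and 5.45 CPM and Gm15469 between 0.468 and 1.91 CPM over all libraries; Gm20402 was not listed in the count tables. No annotated gene overlapped the exons of the other 7 genes.

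ORX was compared with sham surgery in WT to learn how androgen loss changed the genes. In WT, 5 of the 10 genes passed the test, against 5.45% of all genes, with 2 higher (*Trim55* and *Foxo4*; 2.04% of all genes) and 3 lower (*Fbxo32*, *Trim54* and *Fbxo30*; 3.41%). Over the 10 genes the median log2FC was −0.08, and over all genes it was 0.01. The groups did not overlap for 6 genes, against 6.04% of all genes: *Fbxo32*, *Trim54* and *Fbxo21* lay below, and *Trim55*, *Foxo3* and *Foxo4* above. In KO, 4 genes passed, against 5.57% of all genes, with 1 higher (*Foxo3*; 1.99% of all genes) and 3 lower (*Fbxo32*, *Trim54* and *Fbxo21*; 3.58%). *Fbxo32*, *Trim54* and *Fbxo21* also had groups that did not overlap there, which makes 3 of 10 against 5.34% of all genes. The count of 4 called genes in KO was 2 with library-size scaling and 2 with the compared groups alone. Library-size scaling also turned the balance of all called genes in KO, to 707 higher and 193 lower, from 348 and 627.

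KO was compared with WT to learn how the loss of α-actinin-3 changed the genes. In the sham comparison 3 genes passed, against 5.3% of all genes, with 1 higher (*Foxo4*; 2.48%) and 2 lower (*Fbxo32* and *Trim54*; 2.82%), and 2 genes had groups without overlap, against 5.1%. After ORX *Fbxo32* and *Trim54* passed, 2 of 10 against 3.8% of all genes, with 0 higher (1.07%) and 2 lower in KO (2.73%), and both were without overlap, where 5.6% of all genes had none. The comparisons share samples: WT-sham enters both the ORX effect in WT and the genotype effect in the sham groups, and each other group likewise enters 2 of them. Library-size scaling in place of TMM moved the median of all genes for ORX in KO from 0.01 to 0.12, and moved no other median this far.

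DHT was compared with empty implants in spinalis, and again KO with WT. Of the counts of called genes below, that for DHT in KO was 1 with library-size scaling and 1 to 2 with 1 library left out. The count between the genotypes with empty implants was 2 with DESeq2 and 0 to 2 with 1 library left out. For DHT in WT 4 genes passed, against 11.3% of all genes, with 2 higher (*Fbxo32* and *Trim54*; 6.63%) and 2 lower (*Fbxo40* and *Foxo3*; 4.64%); the groups of 3 genes did not overlap, also against 11.3% of all genes, namely *Fbxo40*, *Foxo3* and *Fbxo21*. For DHT in KO 2 of 10 passed against 4.62% of all genes, 1 higher (*Fbxo21*; 2.86%) and 1 lower (*Foxo3*; 1.75%), and *Foxo3* alone was without overlap, 1 of 10 against 6.08%. With empty implants 1 gene passed between the genotypes, *Fbxo32*, against 4.25% of all genes, with 0 higher (1.75%) and 1 lower (2.5%), and it was also the 1 gene without overlap, against 6.77%. With DHT 3 genes passed, against 11.6% of all genes: 1 higher in KO (*Fbxo40*; 5.13%) and 2 lower (*Fbxo32* and *Fbxo30*; 6.51%), and 2 of them, *Fbxo32* and *Fbxo40*, had groups without overlap, against 10.4%.

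A change that passed in one genotype and not in the other was read only through the interaction, the difference between the treatment effects in KO and WT. Of the 10 genes 0 passed edgeR's quasi-likelihood test for the ORX interaction, where 0.0228% of all genes did (0.0171% higher and 0.00571% lower). An unadjusted p under 0.05 was found for 2 of the 10, and for 1683 of all 17514 genes. DESeq2 and limma-voom also called 0 of the 10, and over all genes they called 125 and 10, against 4 with edgeR. For the DHT interaction 0 of 10 passed with edgeR, where 3.24% of all genes did (1.34% higher and 1.9% lower). Here 5 of the 10 had an unadjusted p under 0.05, as did 2564 of all 16987 genes. DESeq2 and limma-voom called 0 of the 10. Library-size scaling called 1, *Fbxo40* (q = 0.0397).

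**Figure D1:**
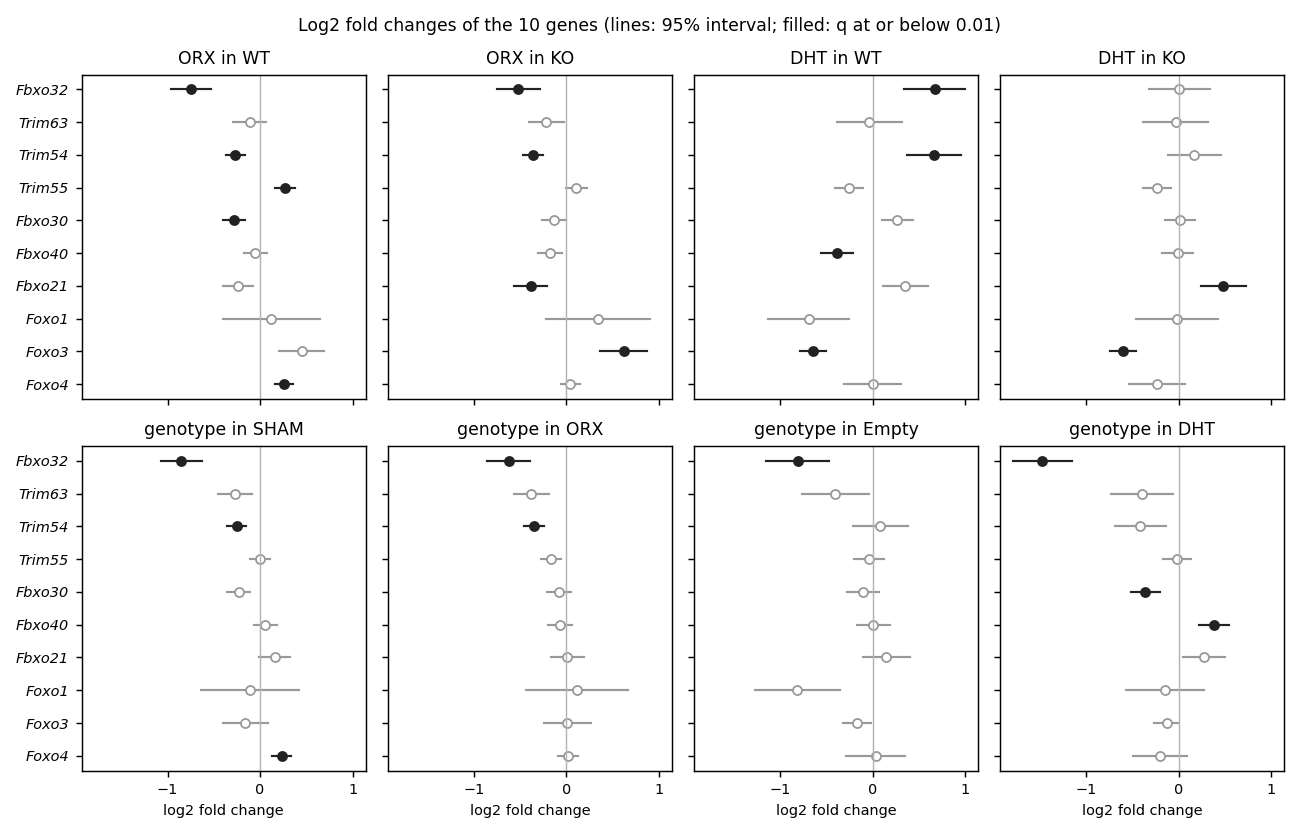
Log2 fold changes of the 10 genes in each of the 8 treatment and genotype comparisons, with 95% intervals; filled points have q at or below 0.01. *Fbxo32* has filled points in 7 of the 8 comparisons, from −1.47 (KO against WT with DHT) to 0.67 (DHT in WT), and *Trim63* and *Foxo1* have 0.

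*Fbxo32* encodes the substrate-binding F-box subunit of an SCF ligase. In gastrocnemius its lowest, median and highest values were 394, 431 and 525.9 CPM in WT-sham, and 214, 265 and 312 CPM in WT-ORX. All 6 WT-ORX libraries lay below all 6 WT-sham libraries. The fall was −0.75 in log2FC (SE 0.107, q = 1.92e-05), to 0.596 of the sham level.

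In KO-sham *Fbxo32* was at 201, 230.0 and 355 CPM (lowest, median, highest), and the KO-ORX libraries were at 153, 158, 184, 187 and 174 CPM. The KO-ORX libraries were all lower than the KO-sham libraries, and KO-sham replicate 2, at 355 CPM, stood apart from the other 5. The 2 lowest KO-ORX values, 153 and 158 CPM, are those of replicates 1 and 2, which stand apart in fibroblast sum and total as given for *Foxo1*; the part of these in the fall was not tested. *Fbxo32* fell here as well (log2FC −0.52, SE 0.113, q = 0.00307), with an ORX interaction of 0.23 (q = 0.671; 0.36 without KO-sham replicate 2). This fall in KO missed the threshold with library-size scaling (q = 0.0171), with a fit of the compared groups alone (q = 0.014) and without KO-ORX replicate 1 (−0.48, q = 0.0119).

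Between the genotypes, every KO-sham library lay below every WT-sham library, and every KO-ORX library below every WT-ORX library. The differences were −0.85 (SE 0.107, q = 4.37e-06) in the sham groups and −0.62 (SE 0.113, q = 0.000555) after ORX. Counts thinned to the smallest library gave the same sham difference of −0.85. Thinning keeps a gene's expected share of its library, so this value does not bear on the smaller KO-sham libraries. Their part in the difference was not tested.

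In spinalis *Fbxo32* was at 289, 439, 307, 269 and 429 CPM in the 5 WT-Empty libraries and at 407, 499.5 and 731 CPM (lowest, median, highest) in WT-DHT. 5 of the 6 WT-DHT libraries were above all 5 WT-Empty libraries, and the lowest WT-DHT library was below the WT-Empty libraries at 429 and 439 CPM. *Fbxo32* rose with DHT in WT (log2FC 0.67, SE 0.159, q = 0.00342). This rise missed the threshold when only the compared groups were fitted (q = 0.0107), and without any one of WT-Empty 14KR (0.61, q = 0.0154), 35KR (0.60, q = 0.0149) or 7KR (0.63, q = 0.0141), or WT-DHT 34KR (0.59, q = 0.0131) or 50KR (0.57, q = 0.0126).

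The KO-Empty libraries held 228, 189, 165, 233 and 175 CPM of *Fbxo32*, and KO-DHT 162, 190.2 and 257 CPM (lowest, median, highest). These ranges overlapped almost completely. The log2FC for DHT in KO was 0.01, with a 95% interval from −0.32 to 0.33, and its sign changed with the scaling (alternatives −0.03 to 0.01, removals −0.08 to 0.07). The DHT interaction was −0.67 (SE 0.223, unadjusted p = 0.00651, q = 0.119), so a difference between the genotypes in the DHT effect did not pass the test.

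Every KO-Empty library was below every WT-Empty library, and every KO-DHT library below every WT-DHT library. With empty implants *Fbxo32* was lower by −0.81 in KO (SE 0.166, q = 0.00276), a call that was lost without KO-Empty 64KR (−0.75, q = 0.0112), WT-Empty 49KR (−0.72, q = 0.0112) or WT-Empty 4KR (−0.70, q = 0.0125). With DHT the difference was −1.47 (SE 0.153, q = 1.37e-07), that is 0.36 of the WT level.

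**Figure D2:**
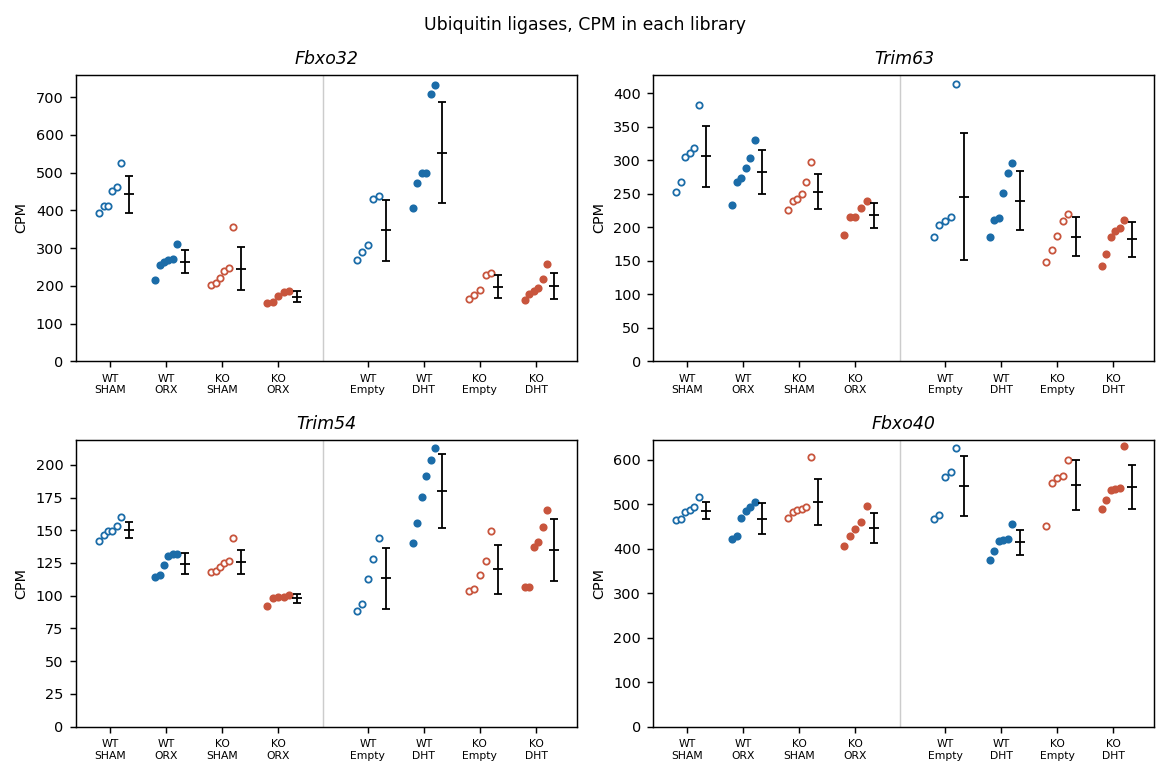
CPM of *Fbxo32*, *Trim63*, *Trim54* and *Fbxo40* in each library of the 8 groups, with the mean ± SD; open points are sham or empty implant, filled points ORX or DHT, blue WT and red KO. For *Fbxo32* the KO-DHT libraries (162 to 257 CPM) lie below all WT-DHT libraries (407 to 731 CPM).

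*Trim63* encodes MuRF1, a RING-finger ligase of the sarcomere known for marking myosin and other thick-filament proteins. It was at 253, 308 and 383 CPM (lowest, median, highest) in WT-sham, at 233, 281 and 330.0 CPM in WT-ORX and at 226, 245 and 298 CPM in KO-sham. In the 5 KO-ORX libraries it was at 239, 189, 229, 216 and 215 CPM. The 4 groups overlapped one another in each comparison, and 4 of the 5 KO-ORX libraries lay below the lowest WT-ORX library.

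None of the 8 comparisons passed for *Trim63* with edgeR's quasi-likelihood test. The ORX effects were −0.11 in WT (q = 0.497; −0.06 without WT-ORX replicate 2 and −0.04 without WT-sham replicate 2) and −0.22 in KO (q = 0.138; −0.11 with library-size scaling), with an interaction of −0.10 (q = 0.834; −0.04 with library-size scaling, and −0.18 to −0.05 with 1 library left out), and the genotype differences −0.27 (sham, q = 0.0463) and −0.38 (ORX, q = 0.0104). The last of these passed in 4 of 7 alternative analyses, whose q ran from 0.00167 to 0.0296, and in 5 of 23 removals of 1 library.

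In spinalis *Trim63* was at 215, 414, 203, 185 and 209.9 CPM in WT-Empty and at 186, 232 and 297 CPM (lowest, median, highest) in WT-DHT. The KO-Empty libraries held 219, 166, 148, 187 and 209.6 CPM, and KO-DHT 142, 189.9 and 211 CPM. WT-Empty 4KR stood far above the other 4 of its group, and all groups overlapped. The DHT effect was −0.03 in WT (95% interval −0.38 to 0.32; alternatives −0.10 to 0.02) and −0.03 in KO (−0.38 to 0.32; alternatives −0.06 to −0.03, removals −0.10 to 0.03), and the interaction was 0.00 (q = 0.999; alternatives −0.04 to 0.03). The genotype values were −0.40 with empty implants (q = 0.169) and −0.40 with DHT (q = 0.094), neither of which passed; without WT-Empty 4KR the former was −0.12 (q = 0.673), the DHT effect in WT 0.24 (q = 0.248) and the interaction −0.27 (q = 0.565).

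*Trim54* encodes MuRF3, which is known for binding microtubules and the Z-disc. Its lowest, median and highest values were 142, 149 and 159.8 CPM in WT-sham, 114, 127 and 132 CPM in WT-ORX, and 118, 123 and 144 CPM in KO-sham. KO-ORX libraries were at 101, 92.0, 99.4, 99.3 and 98.5 CPM. All WT-ORX libraries were below all WT-sham libraries and all KO-ORX libraries below both all KO-sham and all WT-ORX libraries, whereas KO-sham replicate 1, at 144 CPM, reached into the WT-sham range.

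*Trim54* fell after ORX in WT (−0.27, SE 0.0492, q = 0.000505) and in KO (−0.36, SE 0.0521, q = 3.72e-05), with an interaction of −0.09 (q = 0.709; −0.02 with library-size scaling and −0.05 without KO-sham replicate 1). It was also lower in KO than in WT in the sham groups (−0.25, SE 0.0493, q = 0.00102) and after ORX (−0.35, SE 0.052, q = 6.2e-05). These 4 calls held in all 7 alternative analyses and in every single removal of a library. The 382 bp shared with Gm15469 keep *Trim54* uncertain as far as counting on strand goes.

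In spinalis *Trim54* was at 144, 93.9, 88.6, 112 and 128 CPM in WT-Empty and at 140.1, 184 and 213 CPM (lowest, median, highest) in WT-DHT. 5 of the 6 WT-DHT libraries were above all WT-Empty libraries, and the lowest overlapped with WT-Empty 14KR. *Trim54* rose with DHT in WT (0.67, SE 0.140, q = 0.00115). In KO the libraries held 103, 127, 105, 116 and 149 CPM with empty implants and 106, 139 and 165 CPM with DHT, an overlapping pair (0.17, SE 0.139, q = 0.491; 0.10 without KO-DHT 16KR and 0.26 without KO-Empty 62KR), and the interaction was −0.50 (unadjusted p = 0.018, q = 0.204). Between the genotypes the difference was 0.08 with empty implants (removals −0.0081 to 0.19) and −0.41 with DHT (q = 0.0283); with DESeq2 the latter passed (q = 0.00997).

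*Trim55* encodes MuRF2, which associates with titin and microtubules. Its 6 WT-ORX libraries (44.3 to 50.7 CPM) were all above the 6 WT-sham libraries (37.3 to 42.7 CPM), and it rose there by 0.27 (SE 0.051, q = 0.00068). In KO it was 0.11 (q = 0.214), with an interaction of −0.16 (unadjusted p = 0.0405, q = 0.489); with library-size scaling these were 0.22 (q = 0.0148) and −0.09. The DHT effects were −0.25 in WT (q = 0.0176) and −0.23 in KO (q = 0.0437), both negative but outside the threshold, and the former passed with DESeq2 (q = 0.00917) and library-size scaling (q = 0.00404) and in 2 of 22 removals of 1 library. No genotype difference of *Trim55* passed: the largest was −0.16 after ORX (SE 0.0537, q = 0.0654), and those in the sham groups, with empty implants and with DHT were −0.0031, −0.04 and −0.02. Their alternatives were −0.03 to 0.01, −0.04 to −0.000691 and −0.02 to 0.07, and their removals −0.02 to 0.02, −0.07 to 0.03 and −0.05 to 0.01. The DHT interaction was 0.02 (q = 0.961; alternatives 0.0031 to 0.07, removals −0.05 to 0.05).

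*Fbxo30*, an F-box gene known for its rise after denervation, was at 37.1 to 46.4 CPM in WT-sham and 31.4 to 39.6 CPM in WT-ORX. The groups overlapped, and *Fbxo30* fell in WT (−0.28, SE 0.06, q = 0.00219). In KO the change was −0.13 (q = 0.204; −0.03 with library-size scaling, q = 0.864), with an interaction of 0.15 (q = 0.608). With DHT it was at 30.7 to 38.4 CPM in WT and 20.8 to 31.1 CPM in KO and was lower in KO (−0.36, SE 0.0763, q = 0.0013). Both calls were lost with library-size scaling (q = 0.0481 and q = 0.0384). The genotype values that did not pass were −0.23 in the sham groups (q = 0.0121; by DESeq2 it passed, q = 0.00711, as it did in 4 of 23 removals of 1 library), −0.08 after ORX (q = 0.552; −0.04 with library-size scaling or without WT-ORX replicate 2, and −0.05 without KO-ORX replicate 5) and −0.11 with empty implants (q = 0.492; −0.06 with library-size scaling). The DHT effect was 0.27 in WT (q = 0.0203), and without KO-DHT 6KR it was 0.26 and passed (q = 0.00495). In KO the DHT effect was 0.01 (q = 0.945, alternatives −0.02 to 0.03, removals −0.04 to 0.07). The DHT interaction was −0.25 (unadjusted p = 0.0341, q = 0.279).

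*Fbxo40* encodes a muscle F-box protein known for targeting IRS1. In spinalis its 6 WT-DHT libraries were at 375, 418 and 456 CPM (lowest, median, highest), while the 5 WT-Empty libraries held 467, 561, 572, 475 and 625.1 CPM. All WT-DHT libraries were lower, and *Fbxo40* fell (−0.38, SE 0.0831, q = 0.00151). The KO-Empty libraries held 546, 599.8, 564, 449.8 and 559 CPM and KO-DHT was at 490.0, 533 and 632 CPM, overlapping (−0.01, q = 0.949; alternatives −0.04 to −0.01, removals −0.07 to 0.02). Every KO-DHT library was above every WT-DHT library (0.38, SE 0.0795, q = 0.00113), and the DHT interaction was 0.37 (unadjusted p = 0.00438, q = 0.0935). With empty implants the genotype value was 0.01 (q = 0.965; alternatives 0.0035 to 0.05, removals −0.03 to 0.07). In gastrocnemius none of the 4 comparisons passed: the ORX effects were −0.05 in WT (q = 0.669) and −0.18 in KO (q = 0.0727), the genotype values 0.06 in the sham groups (q = 0.629) and −0.07 after ORX (q = 0.648), and the interaction −0.12 (q = 0.689). The effect in KO and the interaction were −0.07 and −0.05 with library-size scaling, and −0.12 and −0.06 without KO-sham replicate 1. The other 3 values moved as well: the effect in WT (alternatives −0.06 to −0.01, removals −0.08 to −0.03) and the genotype values in the sham groups (0.03 to 0.07 and −0.0020 to 0.08) and after ORX (−0.07 to −0.02 and −0.11 to −0.03).

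*Fbxo21*, whose F-box protein is known for its induction with disuse, was at 9.23 to 13.4 CPM in KO-ORX and 13.5 to 17.8 CPM in KO-sham. The groups did not overlap, and *Fbxo21* fell (−0.38, SE 0.0864, q = 0.00408). In WT the ranges were 10.7 to 12.0 CPM after ORX and 12.4 to 14.2 CPM after sham surgery, also without overlap, and the change was −0.24 (q = 0.0616), with an interaction of −0.14 (q = 0.733; −0.07 with library-size scaling, −0.08 without KO-ORX replicate 1 and −0.09 without KO-sham replicate 1). The call in KO was lost with library-size scaling (q = 0.0339), when only the compared groups were fitted (q = 0.0341), and without KO-ORX replicate 1 (−0.32, q = 0.0169), 4 (−0.38, q = 0.013) or 5 (−0.34, q = 0.0186) or KO-sham replicate 1 (−0.33, q = 0.0118).

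With DHT *Fbxo21* was at 13.5 to 21.7 CPM in KO, against 10.9 to 13.9 CPM with empty implants. It rose by 0.48 (SE 0.117, q = 0.00917) with overlapping groups, and the call was lost in 5 of 6 alternative analyses and in 18 of 22 removals of 1 library (over the 22, q ran from 0.00513 to 0.0306). In WT all 6 DHT libraries (12.1 to 16.4 CPM) were above all 5 without (8.64 to 11.9 CPM), with a log2FC of 0.36 (q = 0.0367), and the interaction was 0.13 (q = 0.781; 0.05 without KO-DHT 63KR, 0.08 without WT-DHT 34KR and 0.20 without WT-Empty 7KR). None of the genotype values of *Fbxo21* passed: 0.16 in the sham groups (q = 0.253; 0.10 without KO-sham replicate 1), 0.01 after ORX (q = 0.967; alternatives −0.0035 to 0.06, removals −0.05 to 0.07), 0.15 with empty implants (q = 0.518; 0.10 without KO-Empty 64KR and 0.08 without WT-Empty 7KR) and 0.27 with DHT (q = 0.091).

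*Foxo1* was the least abundant of the genes per kb, and the most variable between mice by its coefficient of variation, in every group except WT-Empty. In gastrocnemius it was at 7.64, 10.8 and 13.2 CPM (lowest, median, highest) in WT-sham, 7.33, 9.74 and 18.5 CPM in WT-ORX and 7.18, 8.65 and 14.5 CPM in KO-sham. The KO-ORX libraries were at 19.2, 19.3, 6.54, 9.72 and 8.00 CPM. KO-ORX replicates 1 and 2, at 19.2 and 19.3 CPM, also had the highest fibroblast sums of their group (3288 and 2399 CPM, against 1372 to 1757 CPM) and its smallest totals (29.7 and 26.7 M, against 41.6 to 48.5 M). All these groups overlapped, no comparison passed, and the SE of the log2FC was between 0.254 and 0.272. The ORX effects were 0.12 in WT (q = 0.848) and 0.34 in KO (q = 0.483), and the latter was 0.13 without KO-ORX replicate 1 and 0.14 without replicate 2. The genotype values were −0.11 in the sham groups (q = 0.858) and 0.11 after ORX (q = 0.879), and the interaction was 0.22 (q = 0.89), from 0.01 to 0.41 with 1 library left out. With 1 library left out the ORX effect in WT ran from −0.07 to 0.22, and the genotype values from −0.25 to −0.03 (sham) and −0.10 to 0.30 (ORX). Over the 7 alternative analyses the ORX effects ran from 0.06 to 0.15 in WT and 0.18 to 0.46 in KO, the genotype value after ORX from −0.03 to 0.17, and the interaction from 0.12 to 0.31.

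In spinalis *Foxo1* was at 17.0, 17.4, 11.7, 21.4 and 19.0 CPM in WT-Empty and at 7.55, 9.36 and 18.1 CPM (lowest, median, highest) in WT-DHT. KO-Empty libraries held 11.1, 12.0, 8.10, 7.46 and 10.8 CPM, and KO-DHT was at 7.59, 7.93 and 13.7 CPM. Both pairs of groups with and without DHT overlapped, as did WT-Empty and KO-Empty. The change with DHT in WT was −0.69 (SE 0.211, q = 0.0226), and the genotype difference with empty implants −0.81 (SE 0.222, q = 0.0215), both outside the threshold with edgeR. By DESeq2 both passed (q = 0.00583 and q = 0.0031), and so did both without WT-DHT 5KR, the library at 18.1 CPM (−0.91, q = 0.00125, and −0.81, q = 0.00747). This library also had the highest fibroblast sum (2547 CPM, against 1338 to 1925 CPM) and the lowest fibre sum (117992 CPM, against 137849 to 161890 CPM) of its group; the part of these in the *Foxo1* values was not tested. The DHT effect in KO was −0.02 (q = 0.965; alternatives −0.05 to −0.02, removals −0.15 to 0.05), the genotype value with DHT −0.14 (q = 0.71; alternatives −0.17 to −0.09, removals −0.26 to 0.07), and the DHT interaction 0.67 (unadjusted p = 0.0361, q = 0.284).

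*Foxo3*, the factor known for activating *Fbxo32* and autophagy genes in fasted and denervated muscle, was at 19.3, 27.1 and 29.7 CPM (lowest, median, highest) in WT-sham and at 30.0, 35.1 and 40.6 CPM in WT-ORX. In KO-sham it was at 20.5, 20.9 and 30.3 CPM, and the KO-ORX libraries were at 43.3, 39.5, 26.8, 34.4 and 32.8 CPM. The WT groups did not overlap, and 4 of the 5 KO-ORX libraries were above all KO-sham libraries. *Foxo3* rose after ORX in KO (0.62, SE 0.123, q = 0.00145); in WT the value was 0.45 (SE 0.116, q = 0.0121), and 5 of 7 alternative analyses put it within the threshold (over the 7, q ran from 0.00258 to 0.0136), as did 4 of 23 removals of 1 library. The interaction was 0.17 (q = 0.787; 0.09 without KO-ORX replicate 1 and 0.27 without KO-sham replicate 1). The highest KO-ORX values, 43.3 and 39.5 CPM, are those of replicates 1 and 2, which stand apart in fibroblast sum and total as given for *Foxo1*; the call in KO held without either of them, and the part of these markers in it was not tested.

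With DHT the order was reversed. WT-Empty libraries held 47.2, 53.3, 40.6, 46.1 and 45.8 CPM of *Foxo3* and WT-DHT 26.1, 30.5 and 32.6 CPM (lowest, median, highest), while KO-Empty libraries held 43.0, 41.7, 38.8, 42.4 and 41.5 CPM and KO-DHT 24.1, 27.6 and 29.5 CPM. Every DHT library was below every library with an empty implant, in both genotypes. *Foxo3* fell in WT (−0.64, SE 0.0689, q = 1.64e-07) and in KO (−0.60, SE 0.069, q = 2.04e-06), with an interaction of 0.04 (95% interval −0.16 to 0.24; alternatives 0.03 to 0.07, removals −0.02 to 0.08). These calls held in all 6 alternative analyses and without any single library. No genotype difference of *Foxo3* passed; the values were −0.16 in the sham groups (q = 0.458; −0.25 without KO-sham replicate 1), 0.01 after ORX (q = 0.973; alternatives −0.03 to 0.06, removals −0.07 to 0.10), −0.17 with empty implants (q = 0.152; −0.11 without WT-Empty 4KR) and −0.13 with DHT (q = 0.198; −0.05 with library-size scaling).

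*Foxo4*, the X-linked member of the family, was at 82.4 to 90.0 CPM in WT-ORX, above all WT-sham libraries (66.1 to 76.6 CPM). It rose by 0.26 (SE 0.0493, q = 0.000775). All 6 KO-sham libraries (78.4 to 93.2 CPM) were also above WT-sham (0.23, SE 0.0494, q = 0.00239), a call lost when only those groups were fitted (q = 0.0121). In KO the change after ORX was 0.05 (q = 0.653; alternatives 0.03 to 0.15, removals 0.02 to 0.07), the genotype value after ORX 0.02 (q = 0.89; alternatives 0.02 to 0.07, removals 0.0025 to 0.04), and the interaction −0.21 (unadjusted p = 0.00651, q = 0.3; −0.14 with library-size scaling). In spinalis none of the comparisons of *Foxo4* passed, and its DHT effects were 0.00 in WT (q = 0.995; alternatives −0.05 to 0.01, removals −0.07 to 0.09) and −0.24 in KO (q = 0.336), with an interaction of −0.24 (q = 0.655). The genotype values were 0.03 with empty implants (q = 0.929; alternatives 0.03 to 0.08, removals −0.03 to 0.13) and −0.21 with DHT (q = 0.368); the latter was −0.14 with library-size scaling or without KO-DHT 25KR, and −0.13 without KO-DHT 6KR.

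**Figure D3:**
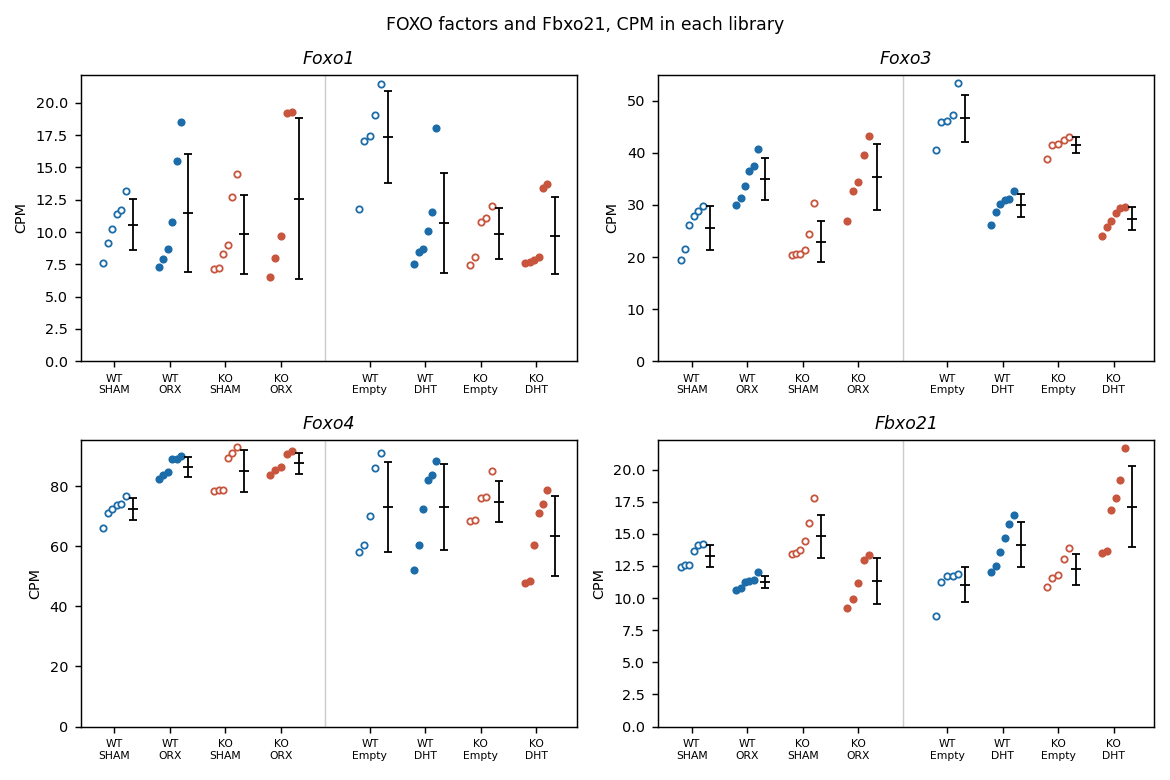
CPM of *Foxo1*, *Foxo3*, *Foxo4* and *Fbxo21* in each library of the 8 groups, with the mean ± SD; open points are sham or empty implant, filled points ORX or DHT, blue WT and red KO. For *Foxo3* all WT-DHT (26.1 to 32.6 CPM) and KO-DHT libraries (24.1 to 29.5 CPM) lie below all libraries with empty implants (38.8 to 53.3 CPM).

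The remaining genes of the pathway were read in 6 lists, and a gene of several lists counts in each. From each list and comparison the text names the up to 4 genes with the smallest p among those past the threshold, whatever became of them under other analyses, except genes not reported here. With the latter these make 100 calls. The share of all genes past the threshold, against which the counts of each list are to be read, was 5.45% for ORX in WT, 5.57% for ORX in KO, 11.3% for DHT in WT and 4.62% for DHT in KO, and between the genotypes 5.3% in the sham groups, 3.8% after ORX, 4.25% with empty implants and 11.6% with DHT. Counts at an unadjusted p under 0.05 by edgeR's test are to be read against all genes too. In gastrocnemius 3907 of 17514 genes had one for ORX in WT and 4288 for ORX in KO. Between the genotypes there, 4082 had one in the sham groups and 3313 after ORX. In spinalis 5070 of 16987 genes had one for DHT in WT and 4278 for DHT in KO. Between the genotypes there, 3969 had one with empty implants and 5034 with DHT. Of the 100 calls 58 held in every alternative analysis and without any single library, and 42 were lost in at least 1 of these. A call of the latter kind is marked "unstable" below. The counts of calls per list moved too: by over 1.5 times, or to or from 0, in 40 of 378 values from other fits (24 of 60 counts) and in 139 of 1350 with 1 library left out (21 of 60 counts).

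Genes known to follow FOXO or fasting numbered 24. After ORX 3 rose and 3 fell in WT, with a list median log2FC of 0.04, and 2 rose and 3 fell in KO, with a median of 0.01. *Sesn1*, encoding a stress-response regulator of TORC1, rose in WT (1.08, SE 0.0708, q = 2.15e-11) and in KO (1.06, SE 0.0738, q = 1.65e-10), from 23.2 to 30.1 CPM in WT-sham to 44.1 to 58.4 CPM in WT-ORX. *Map1lc3a*, of the autophagosome protein LC3A, fell in both (−0.55, q = 6.05e-08, and −0.60, q = 7.58e-08). In WT *Ctsl*, of the lysosomal protease cathepsin L, rose (0.30, q = 0.000303) and *Bcl6*, a transcriptional repressor, fell (−0.72, q = 0.00234). In KO the autophagy receptor *Sqstm1* fell (−0.31, q = 0.00142, unstable) and *Sesn3*, of the sestrin family, rose (0.31, q = 0.00366, unstable).

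With DHT 3 of the 24 rose and 7 fell in WT (median 0.05), and 2 rose and 4 fell in KO (median 0.06). *Sesn1* fell (−1.14, q = 1.87e-07 in WT; −0.72, q = 0.000379 in KO), as did *Gadd45a*, a growth-arrest gene (−0.89, q = 3.16e-06; −0.61, q = 0.00116). In WT *Klf15*, a glucocorticoid-induced transcription factor, fell from 36.3 to 63.1 CPM to 10.4 to 19.0 CPM (−1.74, q = 2.38e-08), and *Ctsl* fell (−0.75, q = 1.36e-08). *Sqstm1* rose in both genotypes (0.52, q = 7.97e-05 in WT; 0.49, q = 0.000494 in KO). *Map1lc3a* rose in KO (0.43, q = 0.000583), and its value in WT, added after the values were seen, was 0.49 (q = 4.4e-05).

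Between the genotypes 2 of the 24 were higher and 1 lower in the sham groups, 1 higher and 2 lower after ORX, 1 higher and 1 lower with empty implants (median −0.08), and 4 higher and 1 lower with DHT (median 0.02). *Sesn3* was higher in KO in each: 0.42 in the sham groups (q = 9.35e-05), 0.55 after ORX (q = 4.68e-06), 0.67 with DHT (q = 2.41e-05) and 0.44 with empty implants (q = 0.00917, unstable). *Ctsl* was lower in KO with empty implants (−0.48, q = 0.000126) and after ORX (−0.26, q = 0.0038, unstable). *Irs2*, of an insulin receptor substrate, was lower in the sham groups (−0.44, q = 0.00714, unstable) and after ORX (−0.51, q = 0.004, unstable). *Map1lc3b*, of LC3B, was higher in the sham groups (0.20, q = 0.00734, unstable) and with DHT (0.29, q = 0.00219), where *Foxo6*, of a further FOXO factor (0.92, q = 0.00229), and *Klf15* (0.70, q = 0.00239) were also higher.

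Inputs to FOXO and the ligases are 19 genes, among them genes of insulin, glucocorticoid and myostatin signalling. In KO against WT 0 were higher and 3 lower in the sham groups (median −0.11), 0 and 2 after ORX (median −0.05), 0 and 6 with empty implants (median −0.18), and 1 and 9 with DHT (median −0.29). The 0 in the higher direction is from edgeR's test. In these 3 comparisons 9, 8 and 11 of the 19 had an unadjusted p under 0.05 in either direction. Over all genes these counts were 4082, 3313 and 3969. *Mstn*, encoding myostatin, a growth inhibitor of muscle, was lower in KO in the sham groups (−1.30, q = 5.75e-09), after ORX (−0.85, q = 1.58e-05), with empty implants (−0.99, q = 8.55e-05) and with DHT (−1.79, q = 5.71e-10). *Smad3*, a transducer of myostatin signals, was lower in the sham groups (−0.51, q = 4.23e-05), after ORX (−0.51, q = 0.000106) and with DHT (−0.86, q = 1.92e-06). *Akt1* was lower in the sham groups (−0.31, q = 0.00285, unstable) and with DHT (−0.46, q = 6.49e-06). With empty implants *Pik3r1* of a PI3-kinase subunit (−0.79, q = 0.000434, unstable) and *Fkbp5* of a steroid-receptor chaperone (−1.35, q = 0.00349, unstable) were lower.

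By treatment 1 of these 19 rose and 2 fell after ORX in WT (median −0.04), and 0 rose and 1 fell after ORX in KO (median 0.04; 8 had an unadjusted p under 0.05). With DHT 3 rose and 3 fell in WT (median 0.05) and 1 rose and 2 fell in KO (median −0.02). *Smad3* fell after ORX in WT (−0.35, q = 0.00207, unstable) and in KO (−0.35, q = 0.00398, unstable), and the glucocorticoid receptor gene *Nr3c1* rose in WT (0.19, q = 0.00686, unstable). With DHT in WT *Mstn* rose (1.10, q = 2.25e-06), from 104 to 155 CPM to 236 to 313 CPM, while *Nr3c1* (−0.54, q = 4e-06) and *Pik3r1* (−0.66, q = 0.000451) fell. With DHT in KO *Akt1* (−0.29, q = 0.00509, unstable) and *Igf1r*, of the IGF-1 receptor (−0.34, q = 0.00998, unstable), fell.

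Of 20 further ligases, ubiquitin-conjugating enzymes and deubiquitinases of muscle, 1 rose and 1 fell after ORX in WT, and 1 rose and 0 fell after ORX in KO. With DHT 0 rose and 1 fell in WT, and 0 passed in KO by edgeR's test (3 had an unadjusted p under 0.05). In KO against WT, 1 was higher and 2 lower in the sham groups, 0 and 3 after ORX, 1 and 0 with empty implants, and 0 and 3 with DHT. *Fbxl22*, of a sarcomeric F-box protein, rose after ORX in WT (0.58, q = 0.000954) and was lower in KO after ORX (−0.50, q = 0.00911, unstable) and with DHT (−0.94, q = 0.000526). The F-box gene *Fbxo31* was lower in KO in the sham groups (−0.34, q = 0.00111) and after ORX (−0.37, q = 0.000898). *Asb2*, of a SOCS-box ligase, was lower in KO after ORX (−0.63, q = 0.0019), in the sham groups (−0.54, q = 0.00399, unstable) and with DHT (−0.65, q = 0.00658, unstable). Other unstable calls were *Ube4b* (0.34, q = 0.00561, ORX in KO), *Wwp1* (0.20, q = 0.00118, KO-sham), *Trim72* (0.28, q = 0.00972, KO-Empty) and *Ube2b* (−0.26, q = 0.00736, DHT in WT). Of 7 genes of the SCF core and ubiquitin itself, *Ubb* rose after ORX in WT (0.23, q = 0.000168) and in KO (0.17, q = 0.00649, unstable), and 0 passed in the other 6 comparisons by edgeR's test, with 1 to 4 genes at an unadjusted p under 0.05.

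Reported substrates and partners numbered 12. The counts of rising and falling genes were 1 and 1 for ORX in WT, 0 and 3 for ORX in KO, 3 and 0 for DHT in WT and 3 and 0 for DHT in KO. KO against WT gave 0 higher and 2 lower in the sham groups, 0 and 3 after ORX, 0 and 0 with empty implants (6 had an unadjusted p under 0.05) and 1 and 1 with DHT. *Eif3f*, of a translation initiation subunit reported as a MAFbx substrate, was lower in KO-sham (−0.38, q = 2.41e-05) and KO-ORX (−0.32, q = 0.000404, unstable). *Myod1*, another reported MAFbx substrate, was lower in KO with DHT (−0.85, q = 0.00211), and the autophagy receptor *Nbr1* was higher (0.29, q = 0.00155). *Des*, encoding desmin, fell after ORX in WT (−0.31, q = 0.000575) and KO (−0.28, q = 0.00343, unstable), rose with DHT in WT (0.49, q = 0.00223, unstable) and was lower in KO-sham (−0.28, q = 0.00155, unstable) and KO-ORX (−0.25, q = 0.00936, unstable). *Mylpf*, of a fast myosin light chain, rose after ORX in WT (0.44, q = 0.000102), and *Sqstm1*, also in this list, rose with DHT as given above. *Tnni2*, of fast troponin I, fell after ORX in KO (−0.26, q = 0.000725, unstable) and rose with DHT in KO (0.36, q = 0.00435, unstable). *Myl1*, of a myosin light chain, rose with DHT in WT (0.29, q = 0.00407, unstable) and KO (0.29, q = 0.00878, unstable) and was lower in KO-ORX (−0.30, q = 0.00792, unstable).

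Of 10 genes of the denervation response 9 were listed in the count tables. After ORX 2 rose and 1 fell in WT, and 1 rose and 1 fell in KO. With DHT 0 rose and 3 fell in WT, and 1 rose and 2 fell in KO. *Myog*, of the myogenic factor myogenin, rose after ORX in WT (0.80, q = 0.000326) and KO (0.71, q = 0.0026, unstable) and fell with DHT in WT (−1.06, q = 0.00255). *Dach2*, encoding a repressor of *Myog*, fell after ORX in WT (−1.05, q = 0.000687) and KO (−0.89, q = 0.00646, unstable) and rose with DHT in KO (1.35, q = 0.000164). *Gadd45a*, also in this list, rose after ORX in WT (0.66, q = 0.00383, unstable). *Ncam1*, of a cell adhesion molecule that spreads along denervated fibres, fell with DHT in WT (−0.84, q = 8.49e-06) and in KO (−1.07, q = 9.41e-07). KO against WT gave 0 calls in the sham groups, after ORX and with empty implants by edgeR's test (2, 0 and 2 had an unadjusted p under 0.05), and 1 higher with DHT, *Myog* (0.97, q = 0.00387, unstable).

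For the ORX interaction 0 genes of these 6 lists passed edgeR's test, where 0.0228% of all genes did. In each list 1 to 3 genes had an unadjusted p under 0.05, against 1683 of all 17514 genes. For the DHT interaction 3.24% of all genes passed. *Klf15*, *Map1lc3b* and *Ctsl* of the FOXO or fasting list, and *Akt1* and *Mstn* of the inputs, were among those that passed, with *Map1lc3b* and *Akt1* unstable.

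The genes whose group means ran most like those of *Fbxo32* were found among 16641 genes over the 8 groups, by the root mean square (RMS) difference of mean log2 CPM after centring each experiment. *Fbxo32* itself had an RMS of 0.55 around its centre. The nearest were *Hr* (RMS difference 0.06), *Rnf126* (0.08), *Gpr75* (0.16), *Hist1h4i* (0.16) and *Lingo3* (0.16). For *Trim63*, with an RMS of 0.18 of its own, they were *Zfp97*, *Amotl1*, *Gm20186*, *Ddx3x* and *Popdc2*, at 0.03 to 0.05. A profile with little variation has many close neighbours, so the values for *Trim63* are less selective than those for *Fbxo32*.

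Promoters were taken from RefSeq sequences of GRCm38.p6, over the 250 bases before each start. 7 of the 10 genes matched with 8 windows, *Fbxo40* having 2; *Fbxo32*, *Trim55* and *Foxo4* had no entry. A FOXO-type motif, GTAAACA, and a steroid-receptor palindrome, of GAACA half-sites that face each other with 3 free bases between them, were searched on both strands because the design varies androgen and the list holds FOXO factors. The first was in 1040 of 32851 windows of the table (3.17%) and the second in 13 (0.0396%). Just 1 window of the table held both, and it belongs to *Trim63*, so it is printed, 5′ to 3′, with the letters that match in capitals. The palindrome begins 208 bases and the FOXO-type motif, which reads on the opposite strand, 194 bases before the start, and they do not overlap. A match describes letters and nothing about a factor. The window lies on the + strand at chr4:134314870-134315119 of GRCm38.p6.
*Trim63* promoter: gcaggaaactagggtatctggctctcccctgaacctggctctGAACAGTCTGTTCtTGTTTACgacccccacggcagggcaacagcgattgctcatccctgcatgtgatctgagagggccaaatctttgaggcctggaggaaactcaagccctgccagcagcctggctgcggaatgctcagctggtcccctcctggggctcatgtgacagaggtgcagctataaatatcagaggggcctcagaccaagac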

How the data were processed

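The deposited count tables hold the authors' read counts per gene: reads were aligned to GRCm39 with STAR (2.7.1b), handled with SAMtools (1.9) and Picard (2.20.2), and counted with featureCounts (Subread 2.0.0). Everything after these counts was computed here.

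Each experiment was fitted by itself with edgeR (4.0.16, R 4.3.3): TMM scaling, 1 mean for each of its 4 groups, and the quasi-likelihood test, corrected by Benjamini-Hochberg across every gene of the table (q). Genes needed 0.5 CPM in at least 2 libraries, a filter that removed 0 genes. Log2 CPM values use a prior count of 2, and log2 fold changes are those of the fit, with the default of edgeR. The alternatives were DESeq2 (1.42.0), limma-voom (limma 3.58.1), library-size scaling, a minimum of 10 counts in every library, no filter (which repeats the same fit, as 0 genes were removed), a fit of the compared groups alone, counts thinned to the smallest library, a threshold of 0.05 (0.1 for interactions), a replicate block for ORX, and the removal of each library in turn. Tables and figures were made with Python (3.11.15), pandas (2.3.3) and matplotlib (3.10.9).

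All 10 genes are reported for each comparison, in the passages on the single genes. From each pathway list the up to 4 genes with the smallest p past the threshold are named per comparison, along with the 5 nearest profiles of *Fbxo32* and of *Trim63*, and *Actn3*. Genes and lists were chosen with earlier results of these data known. Counts over the lists include some genes that are not reported here. The lists, without these, are: other ligases, E2 enzymes and deubiquitinases (*Nedd4*, *Wwp1*, *Traf6*, *Mul1*, *Stub1*, *Trim32*, *Trim72*, *Asb2*, *Cblb*, *Fbxl22*, *Fbxo31*, *Smurf1*, *Ubr2*, *Ube2b*, *Ube2g1*, *Ube4b*, *Usp14*, *Usp19*, *Usp2*); SCF core and ubiquitin (*Cul1*, *Skp1*, *Rbx1*, *Nedd8*, *Uba1* and *Ubb*); FOXO or fasting (*Foxo6*, *Klf15*, *Ddit4*, *Cdkn1a*, *Gadd45a*, *Eif4ebp1*, *Sesn1*, *Sesn3*, *Pdk4*, *Txnip*, *Irs2*, *Bnip3*, *Map1lc3a*, *Map1lc3b*, *Gabarapl1*, *Sqstm1*, *Ulk1*, *Ctsl*, *Bcl6*, *Depp1*, *Ccng2*, *Pik3ip1*, *Cited2*, *Mxi1*); inputs (*Akt1*, *Akt2*, *Insr*, *Irs1*, *Igf1*, *Igf1r*, *Pik3r1*, *Sgk1*, *Nr3c1*, *Fkbp5*, *Tsc22d3*, *Mstn*, *Acvr2b*, *Smad3*, *Ppargc1a*, *Prkaa2*, *Sirt1*); substrates and partners (*Eif3f*, *Myod1*, *Des*, *Mybpc1*, *Mybpc2*, *Myl1*, *Mylpf*, *Myh4*, *Tnni2*, *Ttn*, *Sqstm1*, *Nbr1*); and denervation (*Myog*, *Hdac4*, *Dach2*, *Chrna1*, *Chrng*, *Chrnd*, *Runx1*, *Ncam1*, *Gadd45a*). Fibre markers were *Acta1*, *Ckm*, *Myh4*, *Myh1*, *Myh2*, *Myh7*, *Tnnt3* and *Des*. Chi-square per gene between libraries of a group was 9.09 to 620 over 105 pairs, so no library was taken as a repeat of another.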

Additional observations from a re-analysis of the deposited data

Results flagged for a closer look

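A single mouse stood far from the others of its group in 8 of 96 groups of values, where chance alone gives about 1 in 20. The values, with the nearest library of the group, were *Fbxo32* in KO-sham replicate 2 (355 CPM, next 248), *Trim54* in KO-sham replicate 1 (144, next 127) and KO-ORX replicate 2 (92.0, next 98.5), *Fbxo40* in KO-sham replicate 1 (607, next 494) and KO-DHT 65KR (632, next 536), *Trim63* in WT-Empty 4KR (414, next 215), *Fbxo21* in WT-Empty 7KR (8.64, next 11.2), and the total counts of WT-DHT 39KR (34.8 M, next 50.5 M).

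Between the genotypes the DHT effect differed for pathway genes, among them *Klf15* (1.24, q = 0.00233), *Ctsl* (0.46, q = 0.00693), *Map1lc3b* (0.38, q = 0.0287), *Akt1* (−0.35, q = 0.0366) and *Mstn* (−0.80, q = 0.0177). Over all genes 3.24% passed this interaction. *Akt1* was lost with thinned counts (q = 0.0672), with library-size scaling (q = 0.133) and in 14 of 22 removals of 1 library, and *Map1lc3b* with library-size scaling (q = 0.0669) and in 7 of 22 removals; the cause was not tested.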

How the results depend on the processing

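Of 630 fold changes of the 10 genes from other fits 580 kept their direction and side of the threshold, 13 lost a call, 16 gained one and 21 changed sign. The fit with no filter is not counted, since the filter removed 0 genes, nor is the other threshold, which cannot lose a call. None of the 24 calls changed sign. The changed signs, all of values near 0, were with limma-voom *Fbxo21* −0.0035, *Foxo1* −0.0331 and *Foxo3* −0.0140 (genotype in ORX), *Trim63* 0.0152 (DHT in WT) and −0.0437 (DHT interaction); with the replicate block *Fbxo21* −0.000263 and *Foxo3* −0.0289 (genotype in ORX); with library-size scaling *Fbxo30* −0.0191 and *Fbxo32* −0.0303 (DHT in KO), *Foxo4* −0.0545 (DHT in WT) and *Trim55* 0.0678 (genotype in DHT); with 10 counts in every library *Fbxo32* −0.00292 (DHT in KO), *Foxo4* −0.00547 (DHT in WT) and *Trim63* −0.000257 (DHT interaction); with the compared groups alone *Fbxo32* −0.00185 (DHT in KO), *Foxo4* −0.00447 (DHT in WT) and *Trim55* 0.0051 (genotype in SHAM); with thinned counts *Foxo4* −0.00359 (DHT in WT) and *Trim55* 0.00779 (genotype in SHAM); with DESeq2 *Foxo4* −0.000725 (DHT in WT) and *Trim55* 0.00493 (genotype in SHAM). The cause was not tested.

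Of 2250 values with 1 library left out 2120 kept both, 31 lost a call, 18 gained one and 81 changed sign, in 22 results. The lowest and highest were *Fbxo21* genotype in ORX −0.0499 and 0.0736; *Fbxo30* DHT in KO −0.0350 and 0.0743; *Fbxo32* DHT in KO −0.0835 and 0.0729; *Fbxo40* DHT in KO −0.0740 and 0.0191, genotype in Empty −0.0347 and 0.0709, genotype in SHAM −0.0020 and 0.0775; *Foxo1* DHT in KO −0.151 and 0.0529, genotype in DHT −0.264 and 0.0712, genotype in ORX −0.0954 and 0.298, ORX in WT −0.0656 and 0.218; *Foxo3* genotype in ORX −0.0698 and 0.0981, DHT interaction −0.0171 and 0.0817; *Foxo4* DHT in WT −0.0738 and 0.0885, genotype in Empty −0.0330 and 0.129; *Trim54* genotype in Empty −0.0081 and 0.188; *Trim55* genotype in DHT −0.0522 and 0.0116, genotype in Empty −0.0685 and 0.0257, genotype in SHAM −0.0197 and 0.0234, DHT interaction −0.0450 and 0.0510; *Trim63* DHT in KO −0.104 and 0.0343, DHT in WT −0.121 and 0.236, DHT interaction −0.272 and 0.0891.

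The count of the 10 genes called moved by over 1.5 times, or to or from 0, for DHT in KO to 1 (from 2) with 10 counts in every library, thinned counts, library-size scaling, limma-voom and the compared groups alone; for ORX in KO to 2 (from 4) with library-size scaling and the compared groups alone; for genotype in Empty to 2 (from 1) with DESeq2 and the threshold of 0.05; for DHT in WT to 8 (from 4) and genotype in SHAM to 5 (from 3) with that threshold; and for the DHT interaction to 1 (from 0) with library-size scaling and the threshold of 0.1. Smaller moves were ORX in WT 6 (from 5; DESeq2, limma-voom, the compared groups alone, the block, threshold 0.05), genotype in SHAM 4 (DESeq2) and 2 (compared groups alone; from 3), genotype in ORX 3 (from 2; 10 counts in every library, thinned counts, DESeq2, limma-voom, threshold 0.05), DHT in WT 6 (DESeq2), 5 (library-size scaling) and 3 (compared groups alone; from 4), DHT in KO 3 (from 2; threshold 0.05), and genotype in DHT 4 (DESeq2, threshold 0.05) and 2 (library-size scaling; from 3). Without 1 library the counts were 5 to 6 (ORX in WT), 2 to 4 (ORX in KO), 3 to 4 (genotype in SHAM), 2 to 3 (genotype in ORX), 3 to 5 (DHT in WT), 1 to 2 (DHT in KO), 0 to 2 (genotype in Empty), 3 to 3 (genotype in DHT) and 0 (both interactions).

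The counts of calls per list moved by over 1.5 times, or to or from 0, in 40 of 378 values from other fits. Denervation: genotype in DHT from 1 to 0 (compared groups alone), 2 (DESeq2, limma-voom), ORX in KO from 2 to 0 (compared groups alone); FOXO or fasting: genotype in Empty from 2 to 1 (library-size scaling, compared groups alone), genotype in ORX from 3 to 1 (library-size scaling, compared groups alone), genotype in SHAM from 3 to 1 (block), ORX in KO from 5 to 3 (library-size scaling, compared groups alone); inputs: DHT in KO from 3 to 0 (compared groups alone), 1 (library-size scaling), genotype in Empty from 6 to 2 (compared groups alone), genotype in ORX from 2 to 4 (DESeq2), ORX in KO from 1 to 2 (library-size scaling), ORX in WT from 3 to 1 (library-size scaling); other ligases: DHT in WT from 1 to 2 (library-size scaling, compared groups alone), 3 (DESeq2), genotype in DHT from 3 to 5 (DESeq2), genotype in Empty from 1 to 0 (thinned counts, library-size scaling, compared groups alone), DHT interaction from 0 to 1 (DESeq2), ORX in KO from 1 to 0 (compared groups alone), 2 (limma-voom), 4 (DESeq2), ORX in WT from 2 to 1 (library-size scaling); substrates: DHT in WT from 3 to 5 (DESeq2), genotype in Empty from 0 to 2 (DESeq2, limma-voom), genotype in ORX from 3 to 0 (library-size scaling), ORX in KO from 3 to 0 (library-size scaling); SCF core: genotype in DHT from 0 to 1 (library-size scaling), ORX in KO from 1 to 0 (thinned counts, compared groups alone, block), 2 (DESeq2), ORX in WT from 1 to 2 (DESeq2). With 1 library left out 139 of 1350 moved, in 21 of the 60 counts.

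Over all genes, called genes moved by over 1.5 times with the compared groups alone for ORX in KO (485 against 975), DHT in KO (505 against 784) and genotype in Empty (290 against 722), and with DESeq2 for DHT in KO (1201 against 784) and the ORX interaction (125 against 4; limma-voom 10, thinned counts 13). At the threshold of 0.05 they were 1735 against 955 (ORX in WT), 1925 against 975 (ORX in KO), 1838 against 928 (genotype in SHAM), 1260 against 666 (genotype in ORX), 3078 against 1914 (DHT in WT), 1840 against 784 (DHT in KO), 1557 against 722 (genotype in Empty) and 3170 against 1978 (genotype in DHT), and at 0.1 they were 52 against 4 (ORX interaction) and 829 against 550 (DHT interaction). Library-size scaling moved the percent of called genes that were higher from 37.5 to 54.4 (ORX in WT), 35.7 to 78.6 (ORX in KO), 28.2 to 46.9 (genotype in ORX), 58.8 to 43.6 (DHT in WT), 41.3 to 52.9 (genotype in Empty), 44.1 to 65.3 (genotype in DHT) and 41.5 to 55.1 (DHT interaction).

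With a replicate block the ORX experiment gave 6 (ORX in WT), 4 (ORX in KO), 3 (genotype in SHAM), 2 (genotype in ORX) and 0 (interaction) of the 10 genes. Residuals of samples with the same number correlated at −0.15 to 0.188 (6 of 33 pairs over 0.1). The median was 0.00697, against −0.00881 for samples with other numbers. Of 23 libraries 7 correlated best with their own number, and how many would by chance was not computed. For the DHT experiment alone: No paired analysis was possible because the DHT columns carry no replicate numbers.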
